A study of Mus musculus with 8 samples.

Results

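The genes described here encode proteins that mark megakaryocytes and platelets: Pf4, Itga2b, Itgb3, Vwf, Gp1ba, Gp1bb, Gp5, Gp9, Plek and Treml1. They were chosen by name, as the probe sets that the platform annotation pairs with these symbols alone. Of the 10 genes, 8 had a probe set among the 19505 genes measured, 1 probe set each, and Gp1ba and Gp1bb were not analysed here. They were measured in mouse hematopoietic stem cells, which had been taken from the marrow of mice aged 6 to 10 weeks by a sort for c-Kit, Sca-1 and CD150 and against CD48 and lineage antigens; strain and sex are not given in the labels. Both groups were cultured with stem cell factor at 100 ng/ml and an antibiotic, without a further cytokine named in the labels. One group received eltrombopag at 10 µg/ml for 16 h and the other received sterile water as the vehicle for the same time. Each group held 4 arrays, numbered 1 to 4 in the titles as biological replicates. The labels do not say whether each array came from its own animals, so the spread behind each p-value is that between these samples. It may in part be technical, but it also holds a difference in Y chromosome transcripts, high only in both arrays numbered 3, as given below.

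Megakaryocytes are the large marrow cells that shed platelets. Their surface carries the von Willebrand factor receptor, built from the products of Gp1ba, Gp1bb, Gp5 and Gp9, and the fibrinogen receptor, an integrin built from the products of Itga2b (CD41) and Itgb3 (CD61). Their granules hold Pf4, a chemokine, and Vwf, the adhesive ligand of the first receptor. Many of these genes are also transcribed in part of the stem cell compartment, and Vwf marks stem cells biased towards platelet output. Eltrombopag is an oral drug given to patients with low platelet counts, and it also binds iron. The comparison asks whether the drug changes transcripts of mouse stem cells.

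The 8 measured members were compared in 2 ways. None differed between eltrombopag and vehicle beyond the spread between arrays. Between array numbers, 4 of the 8 had both of arrays 3 and 4 above both of arrays 1 and 2, in the vehicle group and again in the eltrombopag group. These 4 were Plek, Itgb3, Itga2b and Gp9 (3 with quantile normalization, without Gp9), where 5.25% of all genes did the same. Because these 4 moved together between array numbers, the stretch before the start site is shown for the 3 of them that are in the promoter table used here (from RefSeq, build GRCm38.p6), beside that of Gp5, a member whose arrays overlapped. Each line gives the 250 bases before the annotated start, 5′ to 3′ on the gene's strand. Capitals mark GGAAG, the core of many ETS factor sites, and a GATA site, spelled as AGATA or TGATA with A or G after it; both motifs were searched on either strand. FLI1 (an ETS factor) and GATA1 are the factors best known for driving these genes.
Itga2b, chr11:102469884-102470133, minus strand: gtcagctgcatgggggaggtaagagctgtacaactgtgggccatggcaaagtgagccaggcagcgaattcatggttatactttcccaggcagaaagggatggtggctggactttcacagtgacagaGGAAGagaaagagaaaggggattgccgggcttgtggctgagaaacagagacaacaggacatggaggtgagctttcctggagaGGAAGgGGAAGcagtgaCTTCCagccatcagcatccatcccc
Gp9, chr6:87777820-87778069, plus strand: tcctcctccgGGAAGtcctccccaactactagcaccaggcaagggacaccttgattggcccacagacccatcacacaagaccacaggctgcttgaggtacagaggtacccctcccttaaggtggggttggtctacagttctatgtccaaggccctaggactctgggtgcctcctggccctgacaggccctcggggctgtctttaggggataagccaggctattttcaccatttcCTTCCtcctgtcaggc
Plek, chr11:17008719-17008968, minus strand: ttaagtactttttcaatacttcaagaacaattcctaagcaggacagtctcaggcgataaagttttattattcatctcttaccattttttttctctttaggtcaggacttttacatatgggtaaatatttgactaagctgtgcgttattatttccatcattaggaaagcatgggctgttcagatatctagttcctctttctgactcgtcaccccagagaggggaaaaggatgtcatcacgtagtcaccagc
Gp5, chr16:30310782-30311031, minus strand: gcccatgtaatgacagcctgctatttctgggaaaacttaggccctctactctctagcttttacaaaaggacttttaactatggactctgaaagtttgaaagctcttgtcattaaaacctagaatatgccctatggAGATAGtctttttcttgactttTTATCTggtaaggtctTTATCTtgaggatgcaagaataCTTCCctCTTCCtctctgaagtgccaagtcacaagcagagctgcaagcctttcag

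The Itga2b stretch held 4 matches to GGAAG and 0 to the GATA forms, and the Gp9 stretch held 2 and 0. Plek held 0 matches of either kind in this window, while Gp5 held 2 matches to GGAAG and 3 to the GATA forms. The table used here covered 8 of the 10 genes, and 7 of these 8 stretches held GGAAG against 64.1% of 32851 promoter stretches of the same length. For the GATA forms the count was 3 of 8 (Gp1ba, Gp1bb and Gp5) against 26.5% of all stretches. A match describes letters and is not a site.

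The arrays were alike as a whole, with Pearson correlations across genes from 0.987 to 0.993. On the first principal component (25.5% of the variance over all genes) arrays numbered 3 or 4 scored from 13.96 to 15.57 and those numbered 1 or 2 from -18.81 to -11.02, with or without the drug. Both arrays numbered 3 held transcripts of the Y chromosome: Uty was at 7.71 and 6.98 there and between 3.02 and 3.31 in the other 6 arrays. For that reason the count of members higher in arrays 3 and 4 is also given without each number, and the drug comparison was repeated without both arrays numbered 3. Of the genes that mark the sorted cells, Kit (c-Kit) lay between 12.82 and 12.94 over all arrays, Hlf between 11.19 and 11.78, Mecom between 10.06 and 10.51, Procr between 6.41 and 7.38 and Slamf1 (CD150) between 6.19 and 7.75. Of the genes the sort should leave low, Cd48 lay between 5.66 and 6.55, Itgam between 5.88 and 6.66, Cd79a between 5.51 and 6.38 and Cd3e between 4.66 and 5.34, while Flt3, a gene of later progenitors, lay between 8.83 and 9.45. The medians of the arrays ran from 6.66 to 6.70 and their mean lower quartile was 4.96; levels of different probe sets are not compared.

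Both chains of the fibrinogen receptor were well above the arrays' medians, and neither was called for eltrombopag. Itga2b, the alpha chain and the earliest of these genes to mark the lineage, had log2 values of 9.01, 9.30, 9.36 and 9.68 in vehicle arrays 1 to 4, and 9.36, 9.23, 9.67 and 9.61 in eltrombopag arrays 1 to 4. The groups overlapped, with array 4 highest under vehicle and array 3 highest under eltrombopag. Its means were 9.33 ± 0.27 (SD, n = 4) and 9.47 ± 0.21 (SD, n = 4), a log2 difference of 0.13 (SE 0.15, adjusted p 0.99978 in limma). Itgb3, the beta chain, had 10.72, 10.96, 11.46 and 11.43 under vehicle, and 10.69, 10.80, 11.24 and 11.11 under eltrombopag. Every eltrombopag array of Itgb3 was lower than the vehicle array of its own number, with log2 differences of -0.040, -0.16, -0.22 and -0.33 for numbers 1 to 4, yet the groups overlapped because arrays 3 and 4 were higher than arrays 1 and 2 in each. The means were 11.15 ± 0.36 (SD, n = 4) and 10.96 ± 0.26 (SD, n = 4), with a log2 difference of -0.19 (SE 0.19, adjusted p 0.99978 in limma). A lower value in all 4 pairs was found in 5.87% of all genes. The 2 chains of the receptor thus had differences of opposite sign, each smaller in size than its error in this unpaired fit. With the array number as a block the errors were smaller than the differences, at 0.093 for Itgb3 and 0.11 for Itga2b. Neither passed there (unadjusted p 0.0834 and 0.271, adjusted p 0.984 and 0.987 in limma).

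Neither measured part of the von Willebrand factor receptor passed, as no gene did, and their differences had opposite signs. Gp9, the small leucine-rich chain that the complex needs to reach the surface, had 8.62, 8.48, 8.64 and 8.82 under vehicle and 8.66, 8.57, 8.86 and 8.79 under eltrombopag. Its arrays spanned only 0.38 on the log2 scale, the groups overlapped, and the difference was 0.082 (SE 0.11, adjusted p 0.99978 in limma). Gp5, the chain that thrombin cleaves on platelets, had 5.90, 5.43, 6.28 and 5.55 under vehicle and 5.18, 5.62, 5.79 and 5.57 under eltrombopag. Its range of 1.10 was wider than that of Gp9, with vehicle array 3 highest and eltrombopag array 1 lowest. Gp5 lay below the arrays' medians in all 8 arrays, and its difference was -0.25 (SE 0.19, adjusted p 0.99978 in limma).

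Among the granule genes, Pf4 had the largest difference of the 8 members in either direction. It had log2 values of 9.004, 8.58, 8.36 and 9.24 under vehicle, and 9.22, 8.70, 9.18 and 9.15 under eltrombopag. Vehicle arrays 2 and 3 and eltrombopag array 2 were low, and the other 5 arrays lay close together, so the groups overlapped. The means were 8.80 ± 0.40 (SD, n = 4) and 9.06 ± 0.24 (SD, n = 4), a log2 difference of 0.26 (SE 0.19, adjusted p 0.99978 in limma) or 1.20-fold, with a 95% interval from 0.89-fold to 1.62-fold. The pair numbered 3 carried much of it, with a difference of 0.82 against 0.21, 0.11 and -0.098 for numbers 1, 2 and 4. Without both arrays numbered 3 the log2 difference was 0.076. Without vehicle array 4 it was 0.41, with an unadjusted p of 0.0465 and an adjusted p of 0.9999 in limma, and this was the one case in 20 alternative settings in which a member went under 0.05 unadjusted.

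Vwf had 6.15, 6.67, 6.51 and 6.70 under vehicle and 6.26, 6.19, 6.36 and 6.88 under eltrombopag. Array 4 was highest in both groups, and the groups overlapped, with a log2 difference of -0.082 (SE 0.17, adjusted p 0.99978 in limma). With arrays 3 and 4 alone the sign turned, to 0.017. Treml1, a receptor kept in the granules until platelets are activated, had 6.75, 6.80, 6.59 and 6.62 under vehicle and 6.48, 6.74, 6.86 and 6.64 under eltrombopag. It spanned 0.38 over all arrays, and its difference of -0.012 (SE 0.11, adjusted p 0.99978 in limma) turned to 0.14 with arrays 3 and 4 alone.

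Plek encodes pleckstrin, the main substrate of protein kinase C in platelets, which other blood cells express too. Its log2 values were 9.30, 9.47, 10.33 and 10.36 in vehicle arrays 1 to 4, and 9.66, 9.21, 10.29 and 10.20 in eltrombopag arrays 1 to 4. In both groups arrays 3 and 4 lay clearly above arrays 1 and 2. The drug difference was -0.022 (SE 0.30, adjusted p 0.99978 in limma), the widest error of the 8 members, and its sign turned to 0.051 with arrays 1 and 2 alone.

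**Figure D1:**
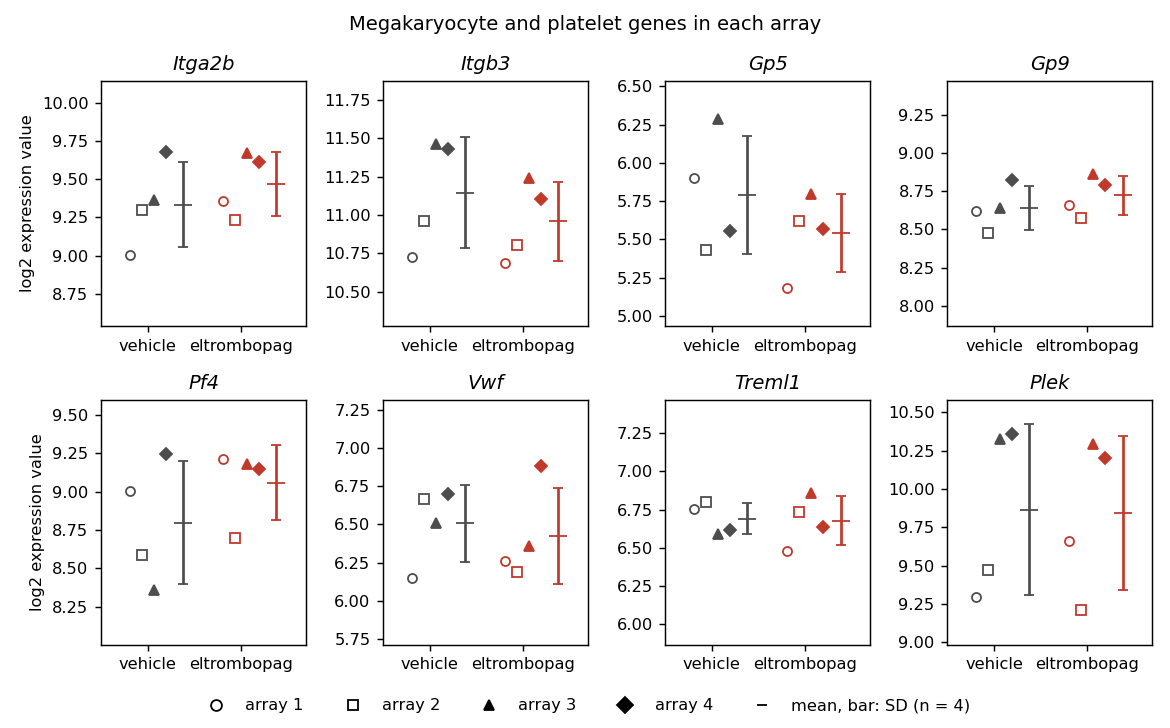
Log2 expression value (vertical axis, each panel 1.6 log2 units tall) of the 8 measured members in vehicle (grey) and eltrombopag (red) arrays; symbols give the array number, open for arrays 1 and 2 and filled for arrays 3 and 4, and bars give the mean and SD (n = 4). The 2 groups overlap in every panel, and in Plek, Itgb3, Itga2b and Gp9 the filled symbols lie above the open ones in both groups.

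Over the 8 members, limma (Benjamini-Hochberg over all genes) called 0, against 0 of 19505 genes (0.0%) in all, and 0 of the 8 had an unadjusted p under 0.05, against 650 genes or 3.33%. In 0 of the 8 did the groups not overlap, which was the case for 2.12% of all genes. The differences were positive for 3 members (Pf4, Itga2b and Gp9) and negative for 5, with a median of -0.017 beside 0.0071 over all genes. The 95% interval lay inside a 1.5-fold change in both directions for 4 of the 8 (Itga2b, Vwf, Gp9 and Treml1), as it did for 17157 of the 19505 genes. For Pf4 the interval reached 1.62-fold higher, for Gp5 and Plek it reached 0.63-fold and for Itgb3 0.66-fold. With the array number as a block, 6 of the 8 intervals lay inside a 1.5-fold change, against 17714 of all genes: Plek then ran from 0.81-fold to 1.20-fold and Itgb3 from 0.76-fold to 1.02-fold, while Pf4 still reached 1.54-fold and Gp5 0.65-fold.

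**Figure D2:**
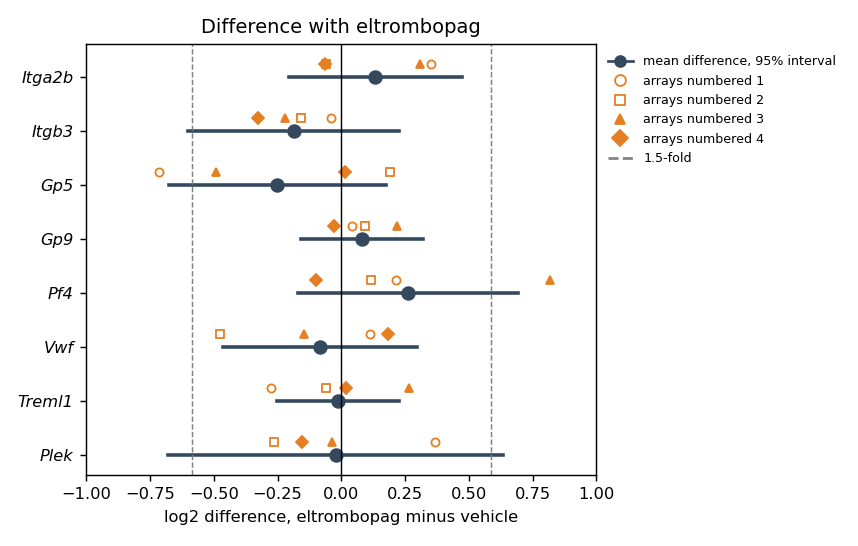
Log2 difference, eltrombopag minus vehicle (horizontal axis), for the 8 members; dark points and lines give limma's estimate with its 95% interval over 8 arrays, orange symbols the difference within each array number, and dashed lines a 1.5-fold change. Every interval spans 0, and only Itgb3 has all 4 orange symbols on 1 side.

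Arrays 3 and 4 held more transcript of several members than arrays 1 and 2, whichever the treatment. The array numbers were set apart because they separate on the first principal component of the same values, so these differences are a description without a test. Plek was higher by 0.96 on the log2 scale under vehicle and 0.81 under eltrombopag, or 1.85-fold on average, and 109 of the 19505 genes (0.56%) had a larger average difference in either direction. Itgb3 was higher by 0.60 and 0.43 (1.43-fold on average), Itga2b by 0.37 and 0.35 (1.28-fold), and Gp9 by 0.18 and 0.21 (1.15-fold). A larger average difference in either direction was found in 2.55% of all genes for Itgb3, 6.98% for Itga2b and 23.1% for Gp9. In these 4 genes both of arrays 3 and 4 lay above both of arrays 1 and 2 in each group, a pattern that 5.25% of all genes showed, while 0 of the 8 members showed the reverse pattern, found in 5.75% of genes. With quantile normalization the count was 3, without Gp9, whose vehicle arrays 1 and 3 were 8.62 and 8.64 as deposited and 8.68 and 8.63 after it.

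The other 4 members did not separate in both groups. Vwf was higher in arrays 3 and 4 by 0.19 under vehicle, where the arrays overlapped, and by 0.39 under eltrombopag, where they did not. Gp5 was higher by 0.26 and 0.28 with overlap in both groups, and Pf4 by 0.0085 and 0.21 with overlap in both. Treml1 differed by -0.17 under vehicle, where both of arrays 3 and 4 lay below both of arrays 1 and 2. Under eltrombopag Treml1 differed by 0.14 with overlap, and it was the only member of the 8 with opposite signs. All 8 members had their highest value in an array numbered 3 or 4, as 47.5% of all genes did, and 7 of 8 had their lowest in an array numbered 1 or 2, as 52.3% of genes did; the exception was Pf4, lowest in vehicle array 3. Over the 8 members the median average difference was 0.28 beside -0.0013 over all genes.

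The counts were repeated without each number. With fewer arrays compared by the same rule, a count can only stay or rise. The repeats therefore cannot show whether the pattern rests on 1 number. Without the arrays numbered 3, the number with high Uty, 5 of the 8 members had array 4 above arrays 1 and 2 in both groups, against 13.02% of all genes, which is a higher share because fewer arrays are compared. Without number 1 the count was 4 (16.4% of genes), without number 2 it was 5 (14.4%), and without number 4 it was 5 (13.9%). The drug's difference in arrays 3 and 4 was also set against that in arrays 1 and 2. The interaction term called 0 members and 0.0% of genes (738 genes, or 3.78%, at an unadjusted p under 0.05), with an adjusted p of 0.99956 in limma for all 8 members.

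**Figure D3:**
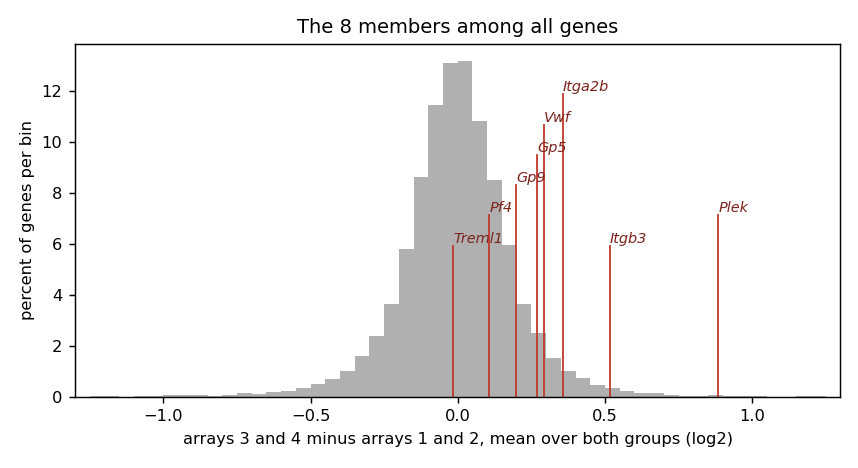
Share of all 19505 genes (vertical axis, percent per bin of 0.05) by the log2 difference of arrays 3 and 4 minus arrays 1 and 2, averaged over both groups (horizontal axis, 37 genes lie outside it), with red lines at the 8 members; line heights only keep the labels apart. Of the members, 7 lie to the right of 0, and Plek lies furthest out at 0.89.

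Other genes of the lineage were taken from a list of 62 arranged by role, of which 56 were measured. Between eltrombopag and vehicle 0 of the 56 passed, 25 were higher and 31 lower, and the median log2 difference was -0.014. By role, 9 of 15 receptors were higher (median 0.030), 4 of 11 granule genes (-0.047), 4 of 16 genes of signalling, cytoskeleton and enzymes (-0.049) and 8 of 14 transcription factors (0.0028). Under an unadjusted p of 0.05 in limma lay 2 of the 56 in this fit, a share near the 3.33% of all genes. One was Lcp2, an adaptor below the collagen receptor, whose eltrombopag arrays all lay below the vehicle arrays (9.49 ± 0.076 and 9.27 ± 0.074, SD, n = 4; difference -0.22, SE 0.090, adjusted p 0.99978 in limma). Such a separation downwards was found in 1.0% of all genes.

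The other was Ppbp, a platelet chemokine gene beside Pf4, and it was dim. Ppbp had 4.48, 4.66, 5.37 and 5.39 under vehicle and 5.57, 5.84, 5.14 and 5.36 under eltrombopag. Numbers 1 and 2 carried the difference of 0.50 (SE 0.23, adjusted p 0.99978 in limma), and with arrays 3 and 4 alone it was -0.13. Vehicle arrays 1 and 2 were the lowest of all arrays, and eltrombopag arrays 1 and 2 were the highest. Clu, a granule chaperone, followed on the higher side with a difference of 0.25 (SE 0.12), and the kinase Syk on the lower side with -0.18 (SE 0.11), each at an adjusted p of 0.99978 in limma.

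The transcription factors that drive the lineage were nearly level with and without the drug. The log2 difference was 0.11 (SE 0.10) for Gata1, -0.046 (SE 0.098) for Gata2, -0.086 (SE 0.11) for Nfe2, -0.0035 (SE 0.082) for Fli1 and 0.00082 (SE 0.12) for Runx1, each at an adjusted p of 0.99978 in limma. Fli1 varied least, at 10.4 ± 0.035 (SD, n = 4) under vehicle and 10.4 ± 0.020 (SD, n = 4) under eltrombopag. The sign of the Runx1 difference turned under quantile normalization (-0.0043) and equal medians (-0.0090), and no direction is given for it.

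Between array numbers the wider list held many genes that were higher in arrays 3 and 4. Both of these arrays lay above arrays 1 and 2 in each group for 19 of the 56 (33.9%, against 5.25% of all genes) and below them for 5 (8.93%, against 5.75%). By role these 19 were 5 of 15 receptors, 2 of 11 granule genes, 7 of 16 genes of signalling, cytoskeleton and enzymes, and 5 of 14 transcription factors. The genes named next were chosen after their values were seen. Selp, the granule membrane protein P-selectin, ran from 7.43 to 8.46 in the 4 arrays numbered 1 and 2 and from 8.65 to 9.49 in the 4 arrays numbered 3 and 4, on average 2.26-fold higher. Thbs1, the granule protein thrombospondin, ran from 8.83 to 9.56 and from 10.1 to 10.5 (2.10-fold). P2rx1, an ATP-gated channel of platelets, was 1.80-fold higher, the G protein subunit gene Gng11 1.77-fold, the podoplanin receptor gene Clec1b 1.51-fold and the granule protein gene Mmrn1 1.48-fold.

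The 5 genes that were lower in arrays 3 and 4 in both groups were Rasgrp2, an activator of the GTPase that switches on the fibrinogen receptor, Lat, Clu, Srgn and Runx1, also named after their values were seen. Their average log2 differences ran from -0.38 for Rasgrp2 to -0.22 for Srgn. Among the 14 transcription factors 10 were higher on average, with a median of 0.083. The 5 that were higher in both groups without overlap were Meis1 (0.30), Mef2c (0.29), Gata2 (0.17), Lyl1 (0.10) and Etv6 (0.095), while Gata1 (-0.034) and Fli1 (0.010) overlapped in at least 1 group.

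Markers of other cell types were looked at in the same way. They were markers of erythroid, neutrophil and monocyte, mast cell and basophil, B, T and NK, and stromal and endothelial cells. With the genes the sort should leave low, 35 were measured. Of these, 0 lay above in arrays 3 and 4 in both groups (5.25% of all genes did) and 1 (Elane) lay below (5.75%). Counts this small do not set the 35 apart from all genes. On average 17 were higher, with a median difference of -0.0015. Some were also dim. Cd3g, Lepr, Ms4a2, Mcpt8, Klrd1, Cdh5 and Gzma never exceeded 4.96, the averaged lower quartile, so a shift in them may not show. The kinds of marker were not alike. On average 4 of 5 erythroid markers were higher (median 0.22), as were 5 of 7 neutrophil and monocyte markers (median 0.15). The medians of the other kinds ran from -0.13 for T and NK cells to 0.014 for B cells. The neutrophil gene S100a8 was the exception in size. It ran from 4.04 to 5.03 in arrays 1 and 2 and from 5.0003 to 6.63 in arrays 3 and 4, with overlap. The mean log2 value of the 7 neutrophil and monocyte markers ran from 6.44 to 6.93 in arrays 1 and 2 and from 6.64 to 6.99 in arrays 3 and 4. Among stem cell genes Hlf was higher in arrays 3 and 4 in both groups, from 11.2 to 11.3 in arrays 1 and 2 and from 11.6 to 11.8 in arrays 3 and 4, whereas Kit (0.050 on average) and Mecom (0.077) overlapped in at least 1 group. For Procr and Slamf1 the differences had opposite signs in the 2 groups: Procr differed by 0.55 under vehicle, without overlap, and by -0.28 under eltrombopag, with overlap, and Slamf1 by -0.40 without overlap and by 0.21 with it. The part of these cells and genes in the members' difference was not tested, and in bulk RNA more cells of a type and more RNA per cell cannot be told apart.

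**Figure D4:**
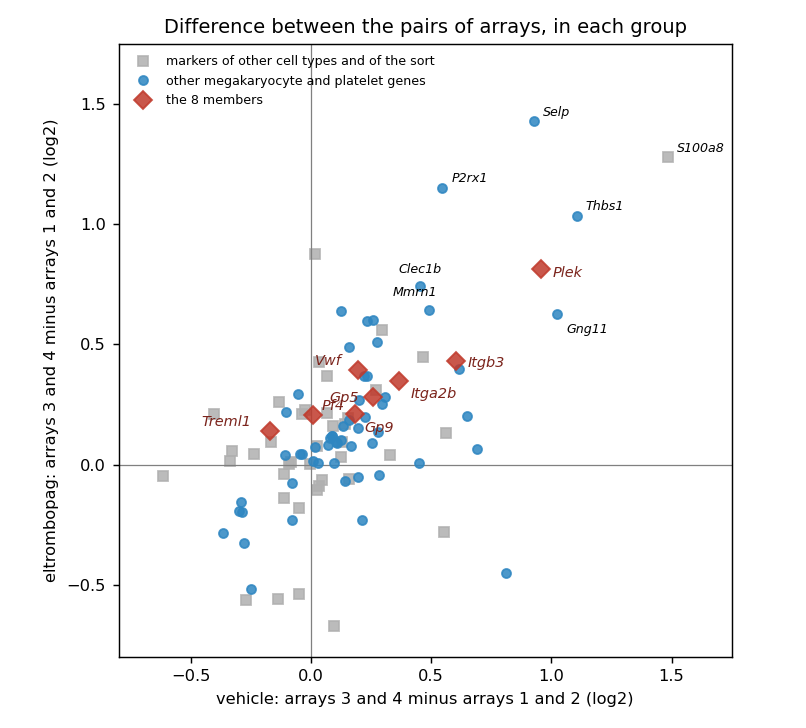
Log2 difference of arrays 3 and 4 minus arrays 1 and 2 in the vehicle group (horizontal axis) and in the eltrombopag group (vertical axis) for the 8 members (red), the 56 other megakaryocyte and platelet genes (blue) and markers of other cell types and of the sort (grey). The 2 axes share no array. Plek, Selp, Thbs1, P2rx1 and Gng11 lie far to the upper right. Many grey points lie around 0, but S100a8 lies far to the upper right, and others such as Hlf, Pax5, Car1, Procr, Cdh5 and Elane also lie away from 0.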

How the data were processed

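The authors deposited 1 log2 value for each probe set on each of 8 arrays. RMA, oligo and limma appear in the submitters' processing notes, with no version, and per the labels' protocols about 10 ng of RNA was amplified by in vitro transcription from the 3′ end. RMA sets arrays to a common distribution, so differences in total RNA are removed. No build is named for the arrays in the labels; promoter sequences and their coordinates are RefSeq's, in GRCm38.p6. Of 22206 probe sets, 19572 had 1 symbol, 0 several and 2634 none. The highest-mean probe set stood for a gene (19505 genes, 55 with several), without a filter. Depth does not apply; the number of arrays limits the precision.

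All genes were fitted by group alone with lmFit and eBayes, two-sided (limma 3.58.1, R 4.3.3), with Benjamini-Hochberg adjustment over all of them and calls at adjusted p under 0.05, and tested on simulated data. Groups and numbers came from the titles. The members, lists and splits were chosen with earlier results of these data known. Named were all members, the 2 genes of the wider list with the smallest p in each direction, and 5 measured regulators. Deviations of same-numbered arrays from their group means correlated at 0.232, 0.286, 0.181 and 0.133 for numbers 1 to 4 (different numbers -0.203 to 0.167). Differences within each number and a fit with the number as a block are therefore also given, on these data and not on the labels. Errors and p-values quoted without naming a block or another setting are from the fit by group alone, which is unpaired. Alternatives were the replicate block, a random effect, a term for arrays 3 and 4, each pair of numbers alone, a filter on dim genes, 2 scalings, array weights, eBayes with trend and robust, mean of probe sets, and leaving out arrays.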

Additional observations from a re-analysis of the deposited data

Results flagged for a closer look

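In 34 groups of 4 arrays (the 8 members and 9 other named genes, 2 groups each), 1 array stood far from the other 3, where chance flags about 1 group in 20, or 1.7 here. It was Pf4 in eltrombopag array 2, with a log2 value of 8.70 against 9.15 to 9.22 in the other eltrombopag arrays (gap over range 0.864).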

How the results depend on the processing

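All 20 alternatives to the drug comparison called 0 genes and 0 members. The replicate block also gave 0 calls of genes and members, with 904 genes (650 without it) below an unadjusted p of 0.05. It changed no call at an adjusted p, but moved the members whose interval lay inside 1.5-fold from 4 to 6. Among the named genes Itgb3 went from an unadjusted p of 0.341 to 0.0834 in limma. Ppbp went from an unadjusted p of 0.0495 to 0.0853 and Clu from 0.0651 to 0.0340 in limma. Testing only the 9752 genes above the median left 304 such genes; this dropped Vwf, Gp5 and Treml1 and kept 5 members. The lowest adjusted p of a member in any alternative was 0.984 in limma. Of the 8 members, 5 kept the sign of their difference in every alternative run; the others were near 0, and the cause was not tested. With numbers 3 and 4 only, Vwf was 0.017, Treml1 0.14 and Ppbp -0.13. With numbers 1 and 2 only, Plek was 0.051 and Runx1 -0.043. Array weights gave 0.011 for Treml1. Runx1 was -0.0043 with quantile normalization, -0.0090 with equal medians and -0.0049 without both arrays numbered 3, where Fli1 was 0.0016. Leaving out 1 array in turn moved Plek between -0.21 and 0.19, Treml1 between -0.073 and 0.054, Fli1 between -0.016 and 0.011, and Runx1 between -0.052 and 0.078. The count of 4 members higher in arrays 3 and 4 in both groups was 3 with quantile normalization and 4 to 5 otherwise. Leaving out each number was chosen after seeing the data and could only keep or raise this count. The filter and the mean of probe sets left the values of these 4 members as they were, so they could not lower it. The interaction called 0 genes in 5 alternatives. Signal over background is not part of these values, so how far dim genes such as Gp5 and Ppbp follow their transcripts is not known here.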

Other observations

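Ppbp, the platelet chemokine gene named above, had a drug difference that was unlike in the 2 pairs of array numbers. It was higher with eltrombopag by 1.09 and 1.18 on the log2 scale in numbers 1 and 2, and differed by -0.23 and -0.023 in numbers 3 and 4. The interaction was -1.26 (SE 0.22), with an unadjusted p of 0.000313 and an adjusted p of 0.99956 in limma, so it did not pass over all genes. P2rx1 (0.61, unadjusted p 0.0118) and Rab27b, a granule transport GTPase (-0.63, unadjusted p 0.0330), were the other genes of the 56 with an unadjusted interaction p under 0.05 in limma, and neither passed. These 3 were named after their values were seen. Over all 19505 genes, 738 (3.78%) had an unadjusted interaction p under 0.05 in limma.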
